A study of Chlamydomonas reinhardtii with 8 samples.

Results

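The control arrays of the green alga Chlamydomonas reinhardtii, with RNA of cultures at 23 °C, did not all give the same levels. On 163 of the 10000 array probes, control replicates 1 and 4 both stood apart from control replicates 2 and 3, by a gap of at least 1.5 on the log2 scale. Of these, 91 probes were high in controls 1 and 4, and 72 were high in controls 2 and 3. Both sets are described here on the control arrays, from which they were chosen, and then on the 4 heat shock arrays, which had no part in the choice.

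A level is the log2 processed intensity of a probe, averaged over its spots, minus the 75th percentile of its array. A member had to be well above background on all 4 control arrays, a condition that 6305 probes met. The gap is the distance between the nearest arrays of the 2 control pairs, so a gap of 1.5 or more leaves no overlap between the pairs. The members were chosen by the levels on the 4 control arrays, so their control values are given as a description with no test. The heat shock levels of the same probes did not enter the rule.

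Chlamydomonas is a unicellular alga that swims with flagella, photosynthesizes in a single chloroplast, and can also grow on acetate. Many of its transcripts rise and fall with the light and dark cycle, the cell cycle, cell density and the supply of nutrients, so cultures handled alike can differ in state. In heat, the alga, like other eukaryotes, induces genes for chaperones through heat shock factors, and many other transcripts fall.

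The arrays held Cy3-labelled targets made from total RNA of whole cells of laboratory strain CC-124. All cultures were grown in Tris-acetate-phosphate (TAP) medium. The control group stayed at 23 °C in the light, and the heat shock group was shaken in the light at 42 °C, for a duration of 45 min. Each group had 4 arrays, numbered 1 to 4. The design text speaks of 3 biological replicates, and the labels do not tie arrays to cultures, so some control arrays may share a culture, and p-values measure only a spread between arrays that may be partly technical. The labels describe growth in the dark or in continuous light without saying which culture had which, and whether the control pairs differ in this was not tested. Which gene each probe reports is not known from the sources used here, since the files call every probe unknown and none of the probe names is in the RefSeq table of 17742 genes. No gene name or function is therefore given to any member, and the labelled strain and cell state could not be checked against marker genes. In such bulk RNA, fewer cells that carry a transcript and less of it per cell cannot be told apart.

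The probes that the results turn on are shown by sequence, 5′ to 3′ as printed on the array, because the sequence is the only identity that the files give them. These 6 had the widest control gap in their set or the largest called change after heat shock:
51.A: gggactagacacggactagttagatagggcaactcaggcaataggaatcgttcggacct
2238.C: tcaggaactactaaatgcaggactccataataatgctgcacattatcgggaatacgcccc
9475.E: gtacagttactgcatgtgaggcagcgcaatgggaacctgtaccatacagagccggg
9383.E: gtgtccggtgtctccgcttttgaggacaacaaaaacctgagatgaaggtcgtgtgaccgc
6365.C: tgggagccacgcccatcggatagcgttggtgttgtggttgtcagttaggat
9920.E: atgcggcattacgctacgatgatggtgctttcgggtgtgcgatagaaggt

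A further 4 probes were chosen after their values were seen, as those whose pairs stood farthest apart on the heat shock arrays too, among probes that were above background there on every array:
2891.C: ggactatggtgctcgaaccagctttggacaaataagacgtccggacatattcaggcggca
3425.C: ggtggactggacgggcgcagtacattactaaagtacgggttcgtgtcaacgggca
8791.D: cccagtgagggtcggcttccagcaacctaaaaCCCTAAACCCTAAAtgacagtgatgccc
2602.C: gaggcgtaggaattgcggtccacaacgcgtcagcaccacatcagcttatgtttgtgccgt
The capitals in 8791.D mark 2 copies of CCCTAAA, the letters of the repeat found at the telomeres of many plants. This motif was searched on both strands after the sequence was seen. It is present in 1 of the 163 members, in 0.381% of the 6305 probes well above background on all controls, and in 0.35% of all 10000 probes.

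The members' sequences were otherwise like those of the array. Median GC content was 55.8% in the set high in 1 and 4, 54.9% in the set high in 2 and 3, and 55.2% in all probes well above background on the controls. Median probe length was 53, 54 and 54 bases in the same order. A run of 16 bases was shared with any other probe by 2 members, and with another member by 0. Separate probes may still report 1 gene.

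On the control arrays the pairs stood about 5-fold apart in the typical member. Between the means of the pairs, the median fold difference was 4.81 in the set high in 1 and 4 (range 3.04 to 20.8) and 5.26 in the set high in 2 and 3 (range 3.24 to 25.1). It was 1.36 over all 6305 probes well above background. The median gap was 1.77 and 1.83 on the log2 scale, and 52 members had a gap of at least 2, 16 of at least 3, and 1 of at least 4. The set high in 1 and 4 was the more abundant on the control arrays in terms of signal, with a median control level of 0.28 against −1.03, although levels of different probes also depend on the probe.

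Within a pair, the members' control arrays lay closer together. The median absolute difference between controls 1 and 4 was 0.44 in the set high in these arrays and 0.57 in the other set, near the 0.41 of all probes well above background. Between controls 2 and 3 it was 0.34 and 0.21, against 0.21. The pairs were not equally far out: control 1 lay farther than control 4 from the other pair in 120 of the 163 members. Over the whole profile it was likewise mainly control 1 that stood apart from controls 2 and 3. Controls 2 and 3 correlated with r = 0.991 across the 6305 probes, controls 1 and 4 with 0.972, control 1 with controls 2 and 3 with 0.941 and 0.942, and control 4 with controls 2 and 3 with 0.961 and 0.960. These correlations are across probes, which are not independent replicates.

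**Figure D1:**
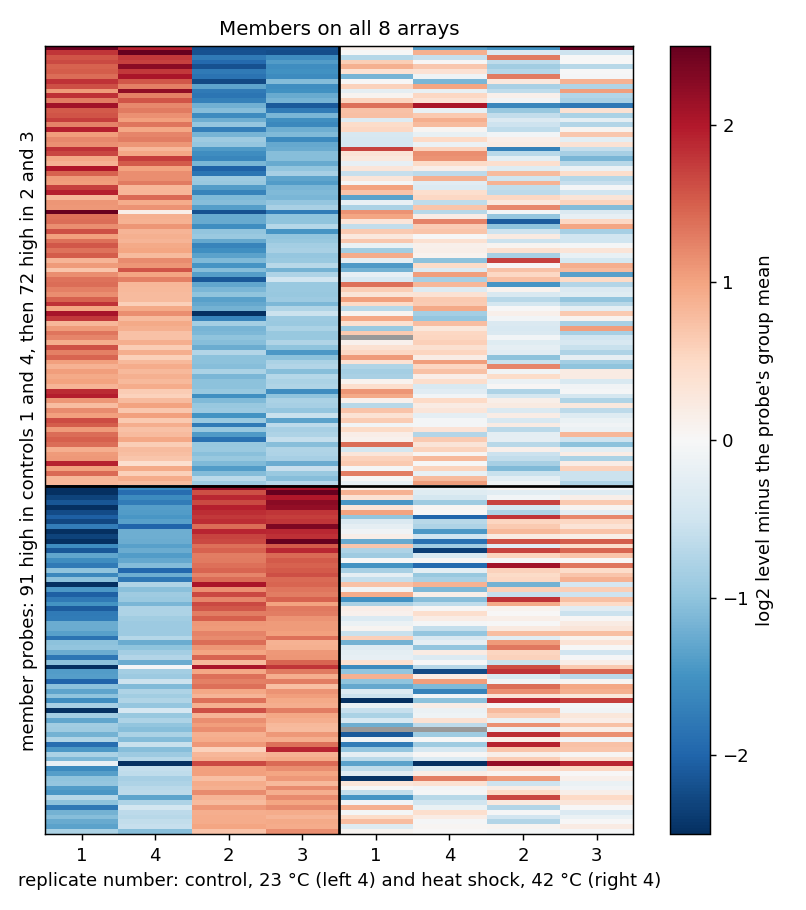
Each row is 1 of the 163 member probes and each column 1 array, with the colour giving the log2 level minus the mean of the probe's own group of 4 arrays (grey where an array had no unflagged spot). The 4 control columns are split by construction, and in the 4 heat shock columns the same colours recur in a paler and patchier form.

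The mean that chose a member was often of 2 spots. Of the members, 89 had 2 unflagged spots on all 4 control arrays, and in all 89 both spots showed the order of their mean, which the choice of members on that mean largely fixes. In 78 of them both spots had a gap of at least 1.5 on their own, and the median difference between the gaps of the 2 spots was 0.0869 on the log2 scale, with a largest of 1.97. Members' spots lay in all 4 quadrants of the array, with 20.2% to 29.8% of a set's spots in each. On the control arrays 0 members were saturated.

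The array-wide measures examined did not part the control pairs. The 75th percentile, the median, the spike-in signal, the number of probes well above background, the number saturated, the share of spots flagged and the local background were compared, and 0 of these 7 measures had controls 1 and 4 both above or both below 2 and 3. The 75th percentile of log2 signal, for instance, was 12.90, 12.76, 12.60 and 12.35 on controls 1 to 4. All 8 arrays lay on 1 slide, with controls 1 and 2 in its first row and controls 3 and 4 in its other row. Controls 1 and 3 shared 1 column and controls 2 and 4 another, so the pairs ran diagonally and neither a row nor a column parted them.

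The threshold cut through a continuous range of gaps. The 2 members just inside it had gaps of 1.501 and 1.503 in the set high in 1 and 4, and 1.506 and 1.514 in the set high in 2 and 3. The nearest probes outside had gaps of 1.4998 and 1.498, and 1.479 and 1.478. A gap of 1.0 gave 454 members and a gap of 2.0 gave 52.

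Probe 51.A had the widest control gap, 4.10. Its level was 0.47, −4.17, −4.16 and −0.06 on controls 1 to 4. Controls 2 and 3 lay almost at the same level, and the pair means stood 20.7-fold apart. On the heat shock arrays 1 to 4 the level was −3.16, −4.80, −0.52 and −4.67. Replicate 3 was the high one there and the pairs overlapped, so the control order did not recur, and the probe was well above background on 2 of the 4 arrays. The log2 fold change of heat shock over control was −1.31 with a standard error of 1.20, which was not called (limma, adjusted p = 0.344). With spike-in scaling it was −4.71 and was called lower (limma, adjusted p = 0.00436).

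Probe 2238.C was the next widest, with a gap of 3.96. Its processed intensity was 65279, 3795, 3305 and 77371 on controls 1 to 4, which are levels of 3.09, −0.87, −0.91 and 3.89. Controls 1 and 4 were thus among bright spots and 20.8-fold above 2 and 3. After heat shock the levels were −4.87, −5.24, −5.39 and −3.99, with the probe well above background on 1 array of the 4. All 4 arrays lay below the lowest control, and replicates 1 and 4 were again the higher, although near background. Under this scaling, the lower bound that allows for dim arrays put the fall at 50.5-fold from the mean of the controls. Other processing gave smaller or larger falls, with log2 fold changes of −5.18 with a common floor, −4.34 with normexp and −9.57 with spike-in scaling. The fitted log2 fold change was −6.17 (SE 0.99, adjusted p = 0.000152). It was −5.57 without control 1 and −5.31 without control 4, against −6.90 without control 2 and −6.91 without control 3.

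In the set high in 2 and 3, probe 9475.E had the widest gap, 3.67. The levels were −2.92, 1.96, 1.80 and −1.87 on controls 1 to 4, and 2.52, 2.47, 2.37 and 2.22 after heat shock. The controls spanned a 19.4-fold difference between pairs, while the heat shock arrays lay close together, all above the highest control. Its log2 fold change was 2.65 (SE 0.95, adjusted p = 0.0252). The call was lost without control 1 (1.76, adjusted p = 0.0700), without control 4 (2.11, 0.0802) and without heat shock 1 (2.61, 0.0547), and the value was 3.39 without control 2 and 3.34 without control 3. When arrays were scaled to their spike-in controls the value was −0.75.

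The largest called rise among the members was that of 9383.E, whose control gap of 3.51 was the next widest of its set. It read −6.05, −1.70, −0.26 and −5.21 on controls 1 to 4, a 25.1-fold difference between pairs. After heat shock it read 6.06, 4.93, 4.87 and 4.88, with replicate 1 the highest, the pairs overlapping, and every array far above every control. The rise was 359-fold, a log2 fold change of 8.49 (SE 1.06, adjusted p = 2.28e-05). It was 7.57 without control 1, 7.85 without control 4 and 9.503 without control 3, and with spike-in scaling it was 5.09.

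Probe 6365.C rose next most, and kept the control order. The levels were −4.97, −1.19, −0.58 and −4.59 at 23 °C, and 2.65, 5.77, 4.76 and 3.20 at 42 °C. Replicates 2 and 3 were above 1 and 4 in both groups, 14.9-fold at 23 °C and 5.08-fold at 42 °C by pair means, and the groups did not overlap. Its log2 fold change was 6.93 (SE 1.01, adjusted p = 7.36e-05), with 6.21 without control 1, 6.34 without control 4 and 7.68 without control 3. With spike-in scaling it was 3.53.

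The next largest called fall after that of 2238.C was that of 9920.E, a probe high in controls 2 and 3. It read 2.42, 4.84, 4.30 and 2.19 on the controls, and −2.81, −0.56, −1.29 and −1.86 after heat shock. All heat shock arrays were below all controls, and replicates 2 and 3 stayed above 1 and 4, by 4.80-fold in controls and 2.66-fold after heat shock. The log2 fold change was −5.06 (SE 0.65, adjusted p = 2.78e-05), and with spike-in scaling it was −8.46.

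**Figure D2:**
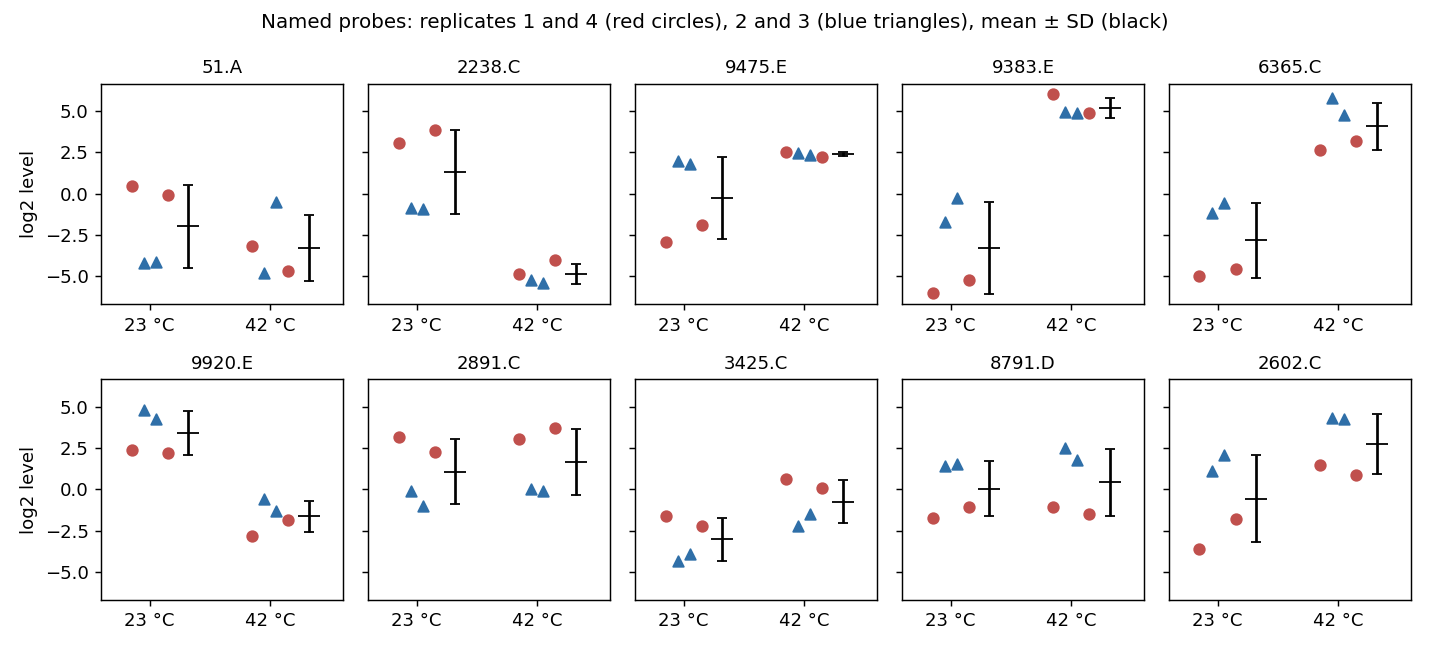
Log2 level of the 10 probes shown by sequence, on each array at 23 °C and at 42 °C, with replicates 1 and 4 as red circles, 2 and 3 as blue triangles, and the mean ± SD of the 4 arrays in black. In the last 4 panels, chosen for this after their values were seen, the colours stand apart at both temperatures, whereas in 9475.E and 9383.E they stand apart at 23 °C and mix at 42 °C.

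The heat shock arrays carry numbers 1 to 4 too, and replicates 1 and 4 can be set against 2 and 3 among them without using the control values. In the set high in 1 and 4, 40 of 91 members (44.0%) had heat shock 1 and 4 both above 2 and 3. Over all 6305 probes well above background on the controls this order occurred in 25.8% of probes. Of the set high in 2 and 3, 42 of 72 members (58.3%) had heat shock 2 and 3 both above 1 and 4, against 33.2% of all these probes. Both shares lay above the background share, and 82 of 163 members kept the control order in all. The opposite order occurred in 13 members of the set high in 1 and 4 and in 8 of the other set.

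Part of the members were dim after heat shock. On all 8 arrays 121 were well above background (74.2%), near the 71.2% of all 6305 probes well above background on the controls. Of the members, 8 were so on no heat shock array. Among the 66 of the set high in 1 and 4 that were well above background throughout, 37 (56.1%) had heat shock 1 and 4 both above, with a background share of 31.1% over the 4488 probes meeting the same condition. Of 55 such members of the set high in 2 and 3, 31 (56.4%) kept the order, with a background share of 32.6%.

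The differences were smaller after heat shock. The mean of heat shock 1 and 4 minus that of 2 and 3 had a median of 0.60 on the log2 scale in the set high in 1 and 4 and −0.61 in the other set, while the median over all these probes was −0.16. The medians of the sets were therefore 1.20 apart after heat shock and 4.66 apart in the controls. This separation is the same under any scaling that shifts a whole array, and was 1.40 with quantile normalization and 0.78 with normexp background correction. Pair means differed in the control direction in 115 of the 161 members with a value on every heat shock array, and by at least 2-fold in 58. These counts were not made over all probes. In either direction, the fold between heat shock pair means had a median of 1.77 and an upper quartile of 2.43 in members. Over all probes well above background on the controls these were 1.61 and 2.25, so differences of this size were common in any probe. Within a set, the size of a member's control difference told little of the size after heat shock. Across the 90 measured members of the set high in 1 and 4 r was −0.05, and across 71 of the other set 0.10. The choice of members on the control gap narrows the range of that difference, so these r do not describe a wider range. Over all probes well above background on the controls, the median heat shock difference was −0.23 where the control pairs overlapped, between those of the 2 sets.

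**Figure D3:**
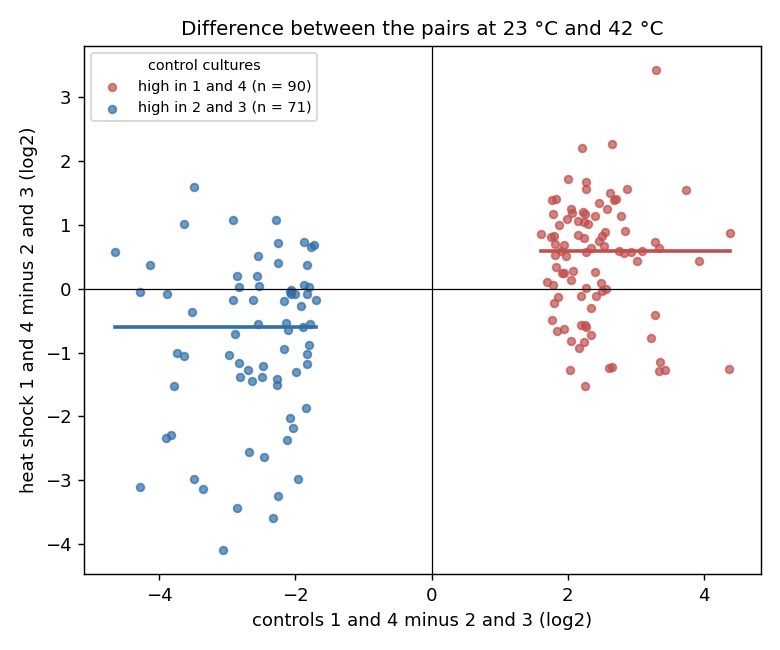
Each point is a member probe, with the mean level of replicates 1 and 4 minus that of 2 and 3 on the control arrays (horizontal, log2) and on the heat shock arrays (vertical, log2), and coloured lines at the set medians of 0.60 and −0.61. The 2 clouds are separate on the horizontal axis by the choice of members, and on the vertical axis they overlap but are centred on opposite sides of 0.

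The shares of single orders moved with the scaling, and 3 of the 7 array-wide measures parted the heat shock pairs. The 75th percentile was 10.65, 9.30, 9.44 and 9.71 on heat shock 1 to 4, and the median and the number of saturated probes were likewise higher on 1 and 4. With spike-in scaling, 64 of 91 members of the set high in 1 and 4 kept their order against 54.9% of all probes, and 18 of 72 of the other set against 9.52%. With array median scaling the counts were 52 against 39.4%, and 32 against 20.9%. In each of these scalings both sets lay above their background share. The total kept was between 79 and 91 of 163 under the 6 other ways of making the values.

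Probes below the threshold followed the same gradation in part. Where controls 1 and 4 lay above by a gap of 1 to 1.5, 42.6% of 190 probes had heat shock 1 and 4 both above, and by a gap of 0.5 to 1 it was 29.9% of 521. Where the control pairs overlapped it was 24.2% of 2555, and where controls 2 and 3 were above by 1.5 or more, 11.1% of the 72 members. Between these bins it was nearly flat, with 24.7%, 24.6% and 22.8% where controls 2 and 3 were above by up to 0.5, 0.5 to 1 and 1 to 1.5. The opposite order ran from 58.3% in the set high in 2 and 3 through 34.3% at overlap to 14.3% in the set high in 1 and 4. It was level, at 40.1% and 40.5%, where controls 2 and 3 were above by 0.5 to 1 and by up to 0.5.

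**Figure D4:**
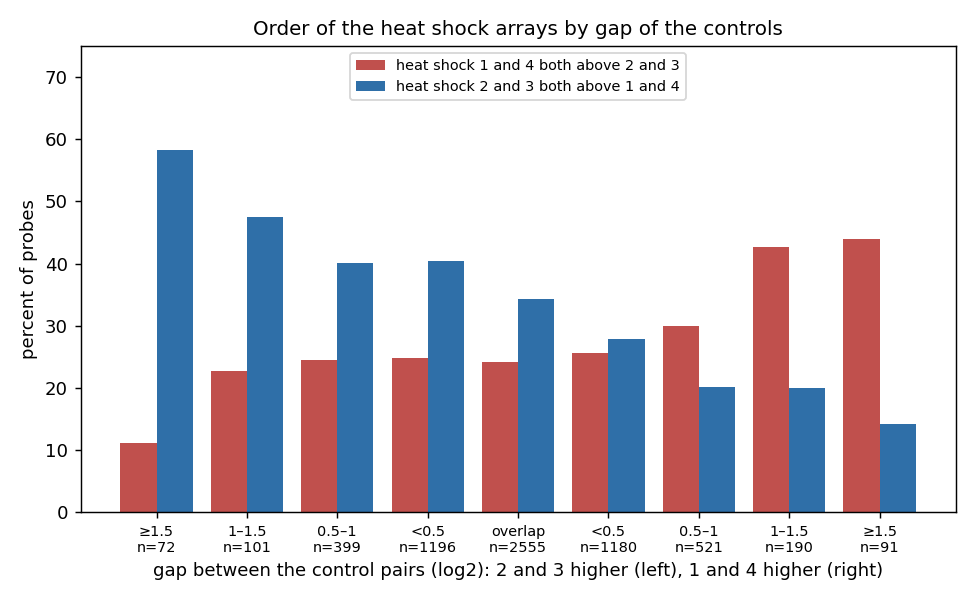
Percent of probes whose heat shock replicates 1 and 4 both lay above 2 and 3 (red) or the reverse (blue), for bins of the gap between the control pairs in log2 units, with the number of probes under each bin. The outermost bins are the members, at 58.3% blue on the left and 44.0% red on the right.

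Across the 6305 probes, heat shock 2 and 3 correlated with r = 0.985 and 1 and 4 with 0.973. Heat shock 1 correlated with 2 at 0.934 and with 3 at 0.951, and heat shock 4 with 2 at 0.960 and with 3 at 0.969. Replicate 4 was thus almost as close to 3 as to 1, and replicate 1 was the one farthest from 2 and 3. Same-numbered control and heat shock arrays lay next to each other on the slide. Whether position, handling or shared cultures lie behind the common order was not tested.

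A gap of at least 1.5 on the heat shock arrays too was present in 14 members, all in the control order. These were 2 of the 91 high in 1 and 4 (2.20%), near the 1.41% of all probes well above background on the controls with such a gap in that direction. The other 12 were of the 72 high in 2 and 3 (16.7%), against 2.95%. Of those 12, 6 were well above background on each of the 4 heat shock arrays. The pair means of the 12 stood 3.91- to 19.5-fold apart in controls and 5.08- to 17.2-fold after heat shock, with some members closer together and some farther apart than in controls.

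Probe 2891.C read 3.18, −0.11, −1.01 and 2.29 on controls 1 to 4 and 3.07, 0.05, −0.11 and 3.73 on heat shock 1 to 4. Replicates 1 and 4 were the high ones in both groups, 9.82-fold in controls and 10.8-fold after heat shock, and the groups overlapped. Its log2 fold change of 0.59 (SE 1.06) was not called (adjusted p = 0.628). Probe 3425.C read −1.62, −4.31, −3.94 and −2.19 in controls and 0.64, −2.21, −1.47 and 0.09 after heat shock. Each heat shock array was above the control of its own number, with a difference between pairs of 4.65-fold and 4.601-fold. Its rise of 2.28 on the log2 scale passed the test (SE 0.73, adjusted p = 0.0142), but with spike-in scaling the value was −1.12.

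Probe 8791.D, which holds the CCCTAAA letters, read −1.71, 1.44, 1.53 and −1.04 on controls 1 to 4 and −1.08, 2.53, 1.77 and −1.51 on heat shock 1 to 4. Replicates 2 and 3 were high in both groups, 7.26-fold and 10.9-fold, and the change with heat shock was not called (log2 fold change 0.37, SE 0.99, adjusted p = 0.747). Probe 2602.C read −3.59, 1.11, 2.08 and −1.80 in controls and 1.498, 4.35, 4.27 and 0.90 after heat shock. Its pairs stood 19.5-fold apart in controls and 8.64-fold after heat shock, and the groups overlapped, because heat shock 1 and 4 reached about the level of controls 2 and 3. The log2 fold change of 3.30 (SE 1.19) was called (adjusted p = 0.0253). That call was lost without control 1 (2.29, adjusted p = 0.0768), control 4 (2.89, 0.0716), heat shock 2 (2.77, 0.0697) or heat shock 3 (2.80, 0.0704), and the value was 4.18 without control 3 and 3.92 without heat shock 4. With spike-in scaling it was −0.095.

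Heat shock against control, fitted with limma over all 6921 tested probes, called fewer of the members than of other probes. After heat shock 46 members were higher, 42 were lower and 75 were not called. Of all tested probes 40.7% were called higher and 31.9% lower, 72.6% in either direction. Of the tested probes well above background on all controls, the ones that could have been members, 36.3% were called higher and 34.9% lower, 71.2% together. The spread between controls that defines the members enters the error of this test. The median control SD was 1.36 in members and 0.39 in all probes well above background. Control SD exceeded heat shock SD in 147 of 163 members (90.2%) and in 32.6% of those probes, a contrast that the rule favours.

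In each set the share called in 1 direction was near that of the probes well above background on all controls, and the share in the other direction was a lower number, a difference that was not tested. Of the 91 members high in 1 and 4, 35 were called lower after heat shock (38.5%, against 34.9%), 17 higher (18.7%, against 36.3%) and 39 not. Of the 72 high in 2 and 3, 29 were called higher (40.3%, against 36.3%), 7 lower (9.72%, against 34.9%) and 36 not. The median log2 fold change was −0.74 and 0.92, with −0.03 over all probes well above background on the controls. Spike-in scaling shifts whole arrays, so it moves the log2 fold changes of probes measured on all arrays by the same amount. The median over all probes well above background on the controls was then −3.43. The set medians were −4.14 and −2.48, and their distance of 1.66 could not change under such a shift. The calls were then 2 higher and 75 lower in the set high in 1 and 4, and 6 higher and 46 lower in the other, against 472 higher and 5211 lower over all tested probes. With quantile normalization they were 8 and 34, and 26 and 8, against 2227 and 2620 over all. The 7 lower calls rested on few arrays: they were 15 without control 1, 11 without control 4, 3 without control 2, 3 without control 3 and 4 without heat shock 4. With the replicate number as a block they were 11. The members called with it were 55 higher and 49 lower, against 2895 and 2305 over all tested probes.

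The distance from the control differs between numbers by construction, since the rule sets controls 1 and 4 apart from 2 and 3. Taken by replicate number, heat shock minus control had medians of −1.91, 0.21, −0.12 and −1.67 for numbers 1 to 4 in the set high in 1 and 4, and 2.41, 0.51, 0.17 and 1.37 in the other set. All 4 numbers gave 1 sign in 96 of the 161 members with a value on every array (59.6%), against 76.7% of all probes well above background.

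The heat shock arrays of each member were also placed against the levels of its controls. In the set high in 1 and 4, 24 members had all 4 heat shock arrays below all controls and 10 had all above, and in the set high in 2 and 3 these counts were 3 and 26. Over the tested probes well above background on the controls, 31.9% had all heat shock arrays below all controls and 33.7% above. All 4 arrays fell inside the gap between the control pairs in 13 members, 5 high in 1 and 4 and 8 high in 2 and 3. In the remaining 87 the heat shock arrays straddled the level of at least 1 control. The counts inside the gap and across a control level were not made over all probes. The median control gap of all probes well above background on the controls was only 0.0966.

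**Figure D5:**
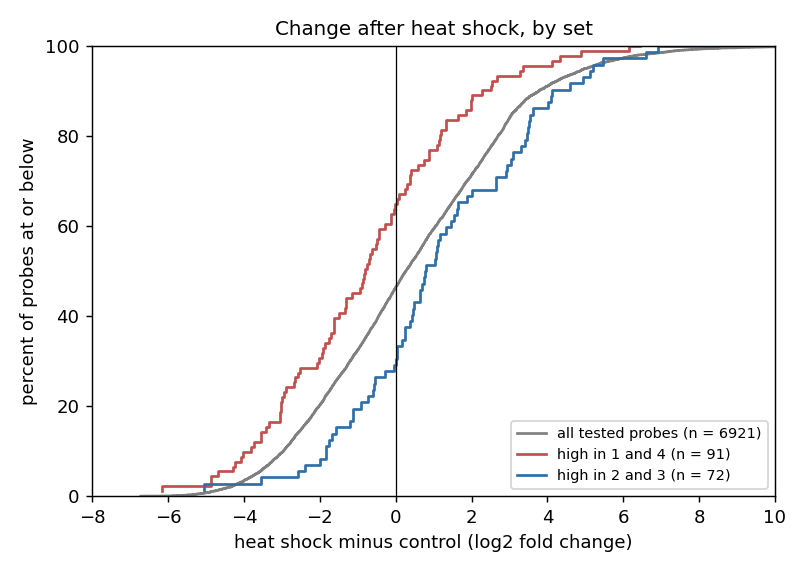
Cumulative percent of probes by log2 fold change of heat shock over control, for all 6921 tested probes (grey), the 91 members high in controls 1 and 4 (red) and the 72 high in controls 2 and 3 (blue). The red curve lies to the left of the grey one and the blue curve mostly to the right, with medians of −0.74 and 0.92.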

How the data were processed

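RNA of control and heat shock cultures was measured on 8 single-colour arrays, 4 per group, with groups and replicate numbers from the titles. The deposited scanner files give an intensity per spot, made with Agilent Feature Extraction 9.5.3.1 (protocol GE1-v5_95_Feb07), per the file headers. The processed intensity is background-subtracted by the authors' scanner software and not scaled between arrays. The files' 0 or 1 flags mark spots that are well above background, saturated or outliers. The deposited log2 table, whose making is not given in the sources used here, served as an alternative.

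The array holds 10000 probes in 15208 spots, and 5208 probes were spotted 2 times. Outlier-flagged spots (0.362% to 2.06% per array) were left out, spots of a probe were averaged as log2, and the 75th percentile of the array was subtracted. For the heat shock comparison, probes well above background on at least 4 arrays were tested (6921), with limma 3.58.1 in R 4.3.3 (lmFit, eBayes, 2-sided, 6 residual degrees of freedom) and Benjamini-Hochberg adjustment over all of them at 0.05. The fit was tested on simulated data with independent noise on each array and few changed probes. That test therefore does not cover arrays that share a culture or deviate together. A lower bound sets the brighter mean against the higher, per array, of the probe's own level and the lowest level among probes well above background. The number of arrays limits the precision.

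The members and lists were chosen with earlier results of these data known. The 20 word lists of gene functions found no probe, since 0 probe names are in the reference table (RefSeq, 17742 genes). Named probes were, in each set, those with the widest control gap, and then the largest called rises and falls, 2 of each kind, and in addition, after values were seen, 2 per set with the widest gap on the heat shock arrays. Same-numbered control and heat shock arrays deviated together from their group means, with r = 0.27, 0.12, 0.26 and 0.20 across 6750 probes for numbers 1 to 4, so the number was also fitted as a block. Heat shock 2 correlated better with control 3 (0.16). Control arrays lay in columns 1 and 3 of the slide and heat shock arrays in columns 2 and 4, so column and treatment cannot be told apart.

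Alternatives were other scalings (array median, the mean of 5 spike-in probes, quantile), normexp with an offset of 50, all spots kept, other filters, a common floor, array row or replicate number as a block, and each array left out.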

Additional observations from a re-analysis of the deposited data

Results flagged for a closer look

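Among the 36 groups of 4 arrays examined (array-wide measures and named probes), 2 held an array far from the others by Dixon's ratio. Chance gives about 1 in 20 groups, or 1.8, for groups not chosen by their values, so that figure does not hold here. The named probes were chosen for control arrays that split into pairs, and 4 of them for such a split after heat shock too. This makes a lone far array unlikely in those groups. The median log2 intensity was 7.10 on heat shock 1, against 6.29, 6.37 and 6.38 on heat shock 2 to 4. The level of 9383.E was 6.06 on heat shock 1, against 4.93, 4.87 and 4.88 on the others.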

How the results depend on the processing

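The number of members was 454 with a gap of 1.0 and 52 with a gap of 2.0, and 125 to 226 under the other scalings, filters and background corrections. Under spike-in scaling, 472 of all tested probes were called higher and 5211 lower, and 8 members higher and 121 lower. Without a filter 5273 of 9973 probes were called higher, and with probes well above background on all 8 arrays 1038 of 4488 were called lower. Members called lower were 23 of 163 with a common floor, where 1866 of 6921 tested probes were. With that filter on all 8 arrays they were 19 of 121. The filters change the number of probes as well as the calls. Spike-in scaling turned the log2 fold change of 9475.E to −0.75, 2891.C to −2.80, 3425.C to −1.12, 8791.D to −3.02 and 2602.C to −0.095. Of these, 2891.C and 8791.D were then called lower (limma, adjusted p = 0.0495 and 0.00718).

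With the replicate number as a block, 55 members were called higher and 49 lower, 16 more than without it, with 0 calls lost and 0 in the opposite direction. Over all 6921 tested probes the block moved the calls from 2820 to 2895 higher and from 2205 to 2305 lower. Members were chosen for a difference between control replicate numbers, part of which the block can take up, so the rule favours a gain in their calls. With 1 array left out, all probes called higher ranged from 2685 to 2817 and lower from 2074 to 2229, and members called higher from 41 to 48 and lower from 34 to 43. In the set high in 1 and 4 the ranges were 14 to 22 higher and 28 to 39 lower, and in the set high in 2 and 3, 26 to 33 higher and 3 to 15 lower. The fold changes of 2891.C and 8791.D, neither called in these fits, ranged from −0.10 to 1.29 and from −0.33 to 1.02.

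The count of members in the control order on the heat shock arrays was compared under alternatives chosen after seeing the data. The calls of 9475.E, 3425.C and 2602.C were lost with a common floor although the log2 fold changes barely moved (2.65, 2.16 and 3.30, with adjusted p of 0.0917, 0.0581 and 0.0957 in limma), and those of 9475.E and 2602.C with quantile normalization. The causes were not tested. Dim heat shock arrays limit 42 members, which were well above background on all controls but not on all heat shock arrays.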
